A study of Mus musculus with 12 samples.

Results

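Of 22690 probe sets in the deposited table, 15 carried the symbol of 1 of 10 genes that build and mark blood vessels, and these are described across quadriceps muscle of trained and drug-treated C57Bl/6J mice. They were taken by gene symbol in the array annotation, for genes picked with earlier results of these data known: Vegfa, Vegfb, Kdr, Flt1, Pecam1, Cdh5, Tek, Tie1, Eng and Emcn. No probe set carried a member's symbol together with another one, and all 15 passed the filter on low signal that left 13575 probe sets to be tested. The 12 arrays fell into 4 groups of 3. Combination mice were trained and given 5 mg/kg of GW1516 daily, a compound that activates the nuclear receptor PPARδ. Exercise mice were trained on a treadmill and are taken to have received vehicle, as the protocol describes 1 trained group with vehicle and 1 with the drug. GW mice stayed sedentary and received the drug at the same dose, and vehicle mice stayed sedentary and received vehicle. Training and treatment lasted 4 weeks in each case, and neither the age nor the sex of the mice is given. RNA of 3 mice of a group was pooled for every array, so the spread between arrays is a spread between pools, and a group stands for 9 mice if no mouse entered a second pool.

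The question put to these genes was whether vessel growth with training or drug can be read from them. In skeletal muscle the fibres are a main source of VEGF-A, which binds 2 receptor tyrosine kinases on the endothelial cells that line the capillaries: KDR, which carries the growth signal, and FLT1, which binds the ligand tightly and signals weakly. VEGF-B binds FLT1 but not KDR. TEK and TIE1 form the angiopoietin receptor pair that steadies the vessel wall, PECAM1 and VE-cadherin (the product of Cdh5) join endothelial cells at their borders, endoglin (Eng) is a co-receptor for BMP and TGF-β ligands, and endomucin (Emcn) is a sialomucin of capillary and venous endothelium. Whole muscle was measured, so fewer endothelial cells and less RNA per endothelial cell cannot be told apart.

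No member passed the test in any comparison. By limma with Benjamini-Hochberg adjustment over 13575 probe sets, 0 of 15 member probe sets were past an adjusted p of 0.05 for combination, exercise or GW against vehicle, for combination against exercise or against GW, for the interaction, or for training and drug averaged over the other factor. The nearest was Vegfa in 1 of its 2 probe sets, with mean signals of 172 ± 38.8 in combination and 301 ± 6.09 in exercise muscle (SD, n = 3 each; adjusted p = 0.0979 by limma). Cdh5, whose 2 probe sets both had their lowest group mean in GW muscle, had an adjusted p of 0.288 or more in all comparisons. The plot of member signals by array shows all values behind these comparisons.

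**Figure D1:**
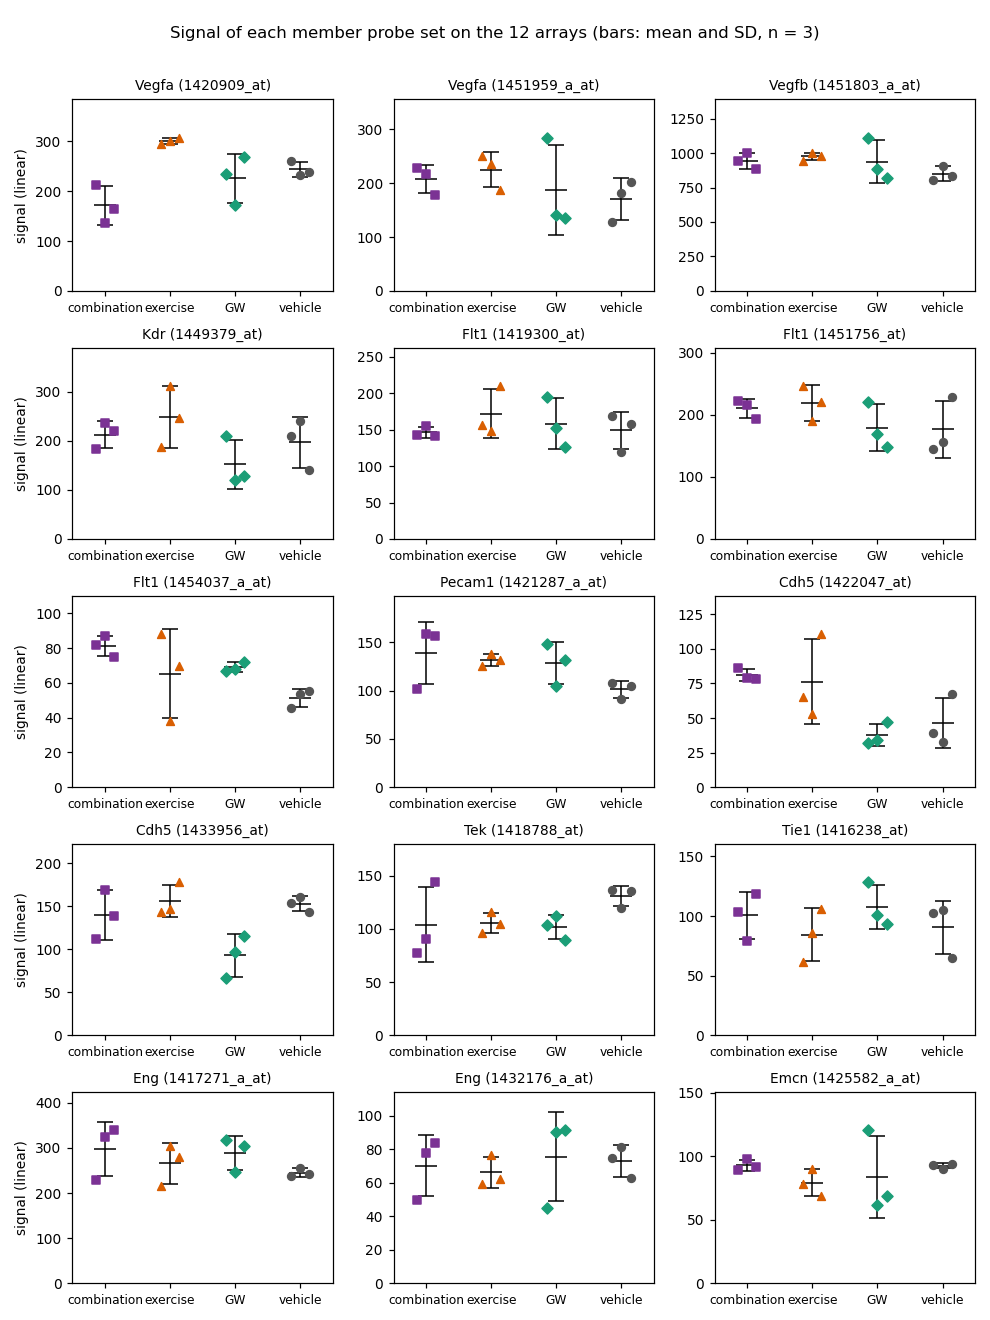
Signal on the linear scale (y axis, from 0) of each of the 15 member probe sets on each array, by group (x axis), with the group mean and SD of 3 arrays as bars; points of a group are arrays 1, 2 and 3 from left to right. Groups overlapped in most panels, while in Vegfa (1420909_at) the 3 combination arrays lay at 137 to 214 and the 3 exercise arrays at 295 to 308.

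All 180 member values lay above the 95th percentile of the bacterial control probe sets on the same array. That percentile was 23.5 over all arrays. The muscle fibre markers Acta1, Ckm, Myh1, Myh2, Myh4 and Mb summed to signals between 58341 and 82550, and 15 endothelial marker genes summed to between 1904 and 2648. Median signals per array ran from 48.4 to 57.2, and the signal at the 3' end of the beta-actin message over that at its 5' end was 0.803 to 0.841 in combination, 0.763 to 0.816 in exercise, 0.801 to 0.916 in GW and 0.838 to 1.10 in vehicle arrays. Fat cell markers (Adipoq, Retn and Cidec, 3 of 6 listed, none at 0) summed to 471, 1854 and 3117 in the combination arrays, against 485 to 638 in exercise, 464 to 597 in GW and 338 to 652 in vehicle arrays. Their part in the member values was not tested, and their sums are repeated beside Vegfa, Pecam1 and Eng.

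The promoters of the ligands and of the growth-signalling receptor are shown because the drug binds a nuclear receptor and these genes carry the VEGF signal. Each line gives the 250 bases before the transcription start from RefSeq (build GRCm38.p6), 5′ to 3′ on the gene's strand. For Vegfa, the more upstream of 2 listed starts was taken (chr17:46032378-46032627, minus strand), and Kdr lay at chr5:75978456-75978705 (minus strand) and Vegfb at chr19:6987652-6987901 (minus strand). In Vegfa and Kdr, capitals mark GGAA, the core bound by ETS factors of endothelial cells, or its complement TTCC.
Vegfa: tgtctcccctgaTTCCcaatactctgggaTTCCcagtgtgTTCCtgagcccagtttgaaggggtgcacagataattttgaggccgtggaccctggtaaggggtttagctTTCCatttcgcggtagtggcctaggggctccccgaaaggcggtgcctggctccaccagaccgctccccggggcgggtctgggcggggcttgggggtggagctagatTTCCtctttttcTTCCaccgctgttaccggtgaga
Kdr: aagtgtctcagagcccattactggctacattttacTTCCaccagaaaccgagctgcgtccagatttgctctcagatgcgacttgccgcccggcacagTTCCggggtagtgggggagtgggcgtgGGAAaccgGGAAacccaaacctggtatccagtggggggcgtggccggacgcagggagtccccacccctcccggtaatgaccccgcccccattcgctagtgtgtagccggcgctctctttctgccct
In Vegfb, capitals mark AGGTCA, the half-site of PPARs and other nuclear receptors, or its complement TGACCT.
Vegfb: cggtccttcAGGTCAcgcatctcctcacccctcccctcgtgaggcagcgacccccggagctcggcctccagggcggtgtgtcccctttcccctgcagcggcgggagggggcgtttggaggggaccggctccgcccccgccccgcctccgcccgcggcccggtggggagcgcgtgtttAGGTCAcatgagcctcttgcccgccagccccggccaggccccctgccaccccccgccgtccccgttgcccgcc

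Promoters were listed for 8 of the 10 genes. GGAA or TTCC occurred 6 times before this Vegfa start, 4 times in Kdr and Flt1, 7 times in Tie1, 3 times in Eng, 4 times in Emcn, 2 times in Tek and 1 time in Vegfb. The same 4 letters occurred in 93.5% of the 32841 promoter windows of this length, with a median of 3 matches, so most genes hold them. AGGTCA or TGACCT occurred 2 times in Vegfb and 2 times in Emcn and in no other member window, against 14.03% of all windows. The PPAR element, a direct repeat of this half-site with any single base between, was on either strand in no member window and in 0.0335% of all windows. The hypoxia core ACGTG or CACGT was found 1 time, before the second Vegfa start, and in 16.6% of all windows. These matches describe the letters only.

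Vegfa (Entrez gene 22339) was measured by 2 probe sets, which ranked the arrays differently. In the probe set 1420909_at the combination arrays had signals of 214, 137 and 164, the exercise arrays 295, 301 and 308, the GW arrays 236, 172 and 269, and the vehicle arrays 261, 232 and 239. All 3 combination arrays were below all 3 exercise arrays and below all 3 vehicle arrays, and all 3 exercise arrays were above all 3 vehicle arrays. The log2 fold change was -0.84 ± 0.18 (SE) for combination against exercise, which is a fold of 0.56 with a 95% interval of 0.43 to 0.73. Its p ranked 46 among the 13575 probe sets, and the adjusted p was 0.0979 by limma. Against vehicle it was -0.53 in combination (interval -0.92 to -0.15, adjusted p = 0.344), 0.31 in exercise (-0.08 to 0.69, 0.574) and -0.14 in GW muscle (-0.52 to 0.25, 0.922).

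The interaction for this probe set (the difference between combination and exercise, less the difference between GW and vehicle) was -0.70 on the log2 scale (interval -1.24 to -0.16, adjusted p = 0.707). Averaged over trained and sedentary mice, the drug arrays differed by -0.49 (interval -0.76 to -0.21, adjusted p = 0.201). The difference from exercise passed the threshold when combination array 1 was left out (log2 -1.01, adjusted p = 0.0199), and its adjusted p was 0.413 without combination array 2 and 0.305 without array 3. The 3 combination arrays were not alike in other tissue markers. Array 1, with a Vegfa signal of 214, had a fat cell marker sum of 471, inside the range of the other groups, while arrays 2 and 3, at 137 and 164, had 1854 and 3117. Immediate early genes, which respond within minutes to contraction and other stimuli, summed to 1930, 869 and 593 in the combination arrays and to 2653, 2849 and 3270 in the exercise arrays. Vehicle arrays, with sums of 841, 734 and 733, had Vegfa signals of 261, 232 and 239. GW arrays, with sums of 1223, 624 and 657, had Vegfa signals of 236, 172 and 269 and fat cell marker sums of 464, 575 and 597. Among the immediate early genes Egr1, a zinc finger transcription factor, had 414, 96.4 and 61.8 in combination arrays, 794, 869 and 937 in exercise arrays, 192, 59.8 and 79.1 in GW arrays, and 85.3, 57.9 and 78.7 in vehicle arrays. It rose in exercise muscle against vehicle (log2 3.57 ± 0.53, adjusted p = 0.0469 by limma), and this call was lost when any vehicle or exercise array, combination array 2 or GW array 3 was left out (adjusted p up to 0.221). The part of these genes in the Vegfa difference was not tested.

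The other Vegfa probe set, 1451959_a_at, had 228, 216 and 179 in combination arrays, 251, 236 and 188 in exercise arrays, 285, 142 and 136 in GW arrays, and 127, 182 and 203 in vehicle arrays. The groups overlapped in every pair. Combination against exercise was -0.11 on the log2 scale (interval -0.66 to 0.43, adjusted p = 0.947). This interval did not reach the -0.84 of the first probe set but overlapped with its interval of -1.22 to -0.45. The difference between the probe sets was not tested. Over the 12 arrays the 2 Vegfa probe sets had a Pearson r of 0.08 (permutation p = 0.799, adjusted over 6 pairs of probe sets of 1 gene 0.921) and a Spearman rho of 0.13 (permutation p = 0.698, adjusted 0.8). The r was 0.22 without the 2 arrays farthest from the median of 1420909_at.

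**Figure D2:**
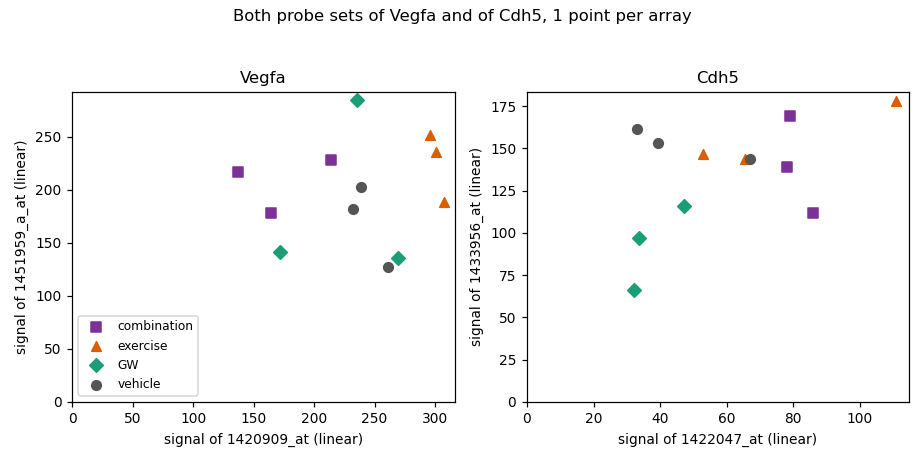
Linear signals of the 2 probe sets of Vegfa (left) and of Cdh5 (right) against each other, 1 point per array, coloured by group. In the Vegfa panel the combination arrays, at 137 to 214 on the x axis, lie left of all exercise and vehicle arrays; in the Cdh5 panel the GW arrays, at 66.2 to 116 on the y axis, lie below all exercise and vehicle arrays.

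Vegfb (Entrez gene 22340), the FLT1 ligand, had the narrowest intervals of the set. Its signals were 943, 1001 and 886 in combination arrays, 945, 1002 and 982 in exercise arrays, 1113, 886 and 818 in GW arrays, and 804, 909 and 837 in vehicle arrays. Every exercise array was above every vehicle array, by 1.15-fold on average (interval 0.98 to 1.35, adjusted p = 0.538), while combination and GW arrays overlapped with vehicle arrays. Against vehicle the intervals were 0.94 to 1.31 for combination and 0.93 to 1.29 for GW, on the scale of folds.

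Kdr (Entrez gene 16542), the main signalling receptor for VEGF-A, had signals of 182, 236 and 220 in combination arrays, 187, 312 and 247 in exercise arrays, 209, 120 and 128 in GW arrays, and 211, 240 and 140 in vehicle arrays. The groups overlapped in every comparison with vehicle. Group means were 213 ± 27.5 in combination, 249 ± 62.9 in exercise, 152 ± 49.6 in GW and 197 ± 51.7 in vehicle arrays (SD, n = 3 each). The training average was 0.43 on the log2 scale, a fold of 1.35 (interval 1.04 to 1.75), with an unadjusted p = 0.0277 and an adjusted p = 0.505. The GW difference from vehicle was -0.38 (interval -0.91 to 0.15, adjusted p = 0.837), in which 2 of 3 GW arrays lay below all vehicle arrays.

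Flt1 (Entrez gene 14254) was measured by 3 probe sets. In 1454037_a_at the signals were 81.8, 86.9 and 75.1 in combination arrays, 88.1, 37.8 and 69.9 in exercise arrays, 67.0, 68.2 and 72.3 in GW arrays, and 45.5, 53.5 and 55.3 in vehicle arrays. All combination arrays and all GW arrays were above all vehicle arrays, and the exercise arrays spanned both. The fold against vehicle was 1.58 in combination (interval 1.04 to 2.41, adjusted p = 0.477) and 1.35 in GW muscle (interval 0.89 to 2.06, adjusted p = 0.839). The 2 other Flt1 probe sets overlapped in all comparisons, with combination against vehicle at -0.01 (interval -0.43 to 0.41) in 1419300_at and 0.28 (-0.13 to 0.69) in 1451756_at on the log2 scale. Their arrays ran from 120 to 210 and from 145 to 247, with the highest array of each in the exercise group.

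Tek (Entrez gene 21687), the receptor of the angiopoietins, had 77.4, 90.6 and 144 in combination arrays, 96.5, 115 and 105 in exercise arrays, 104, 112 and 89.9 in GW arrays, and 136, 120 and 136 in vehicle arrays. All exercise and all GW arrays were below all vehicle arrays, and combination array 3 was the highest of the 12. The fold against vehicle was 0.77 in combination (interval 0.56 to 1.06, adjusted p = 0.598), 0.81 in exercise (0.58 to 1.11, 0.643) and 0.78 in GW muscle (0.56 to 1.08, 0.826). Tie1 (Entrez gene 21846), its partner receptor, did not share this order: its signals were 104, 79.2 and 119 in combination arrays, 61.6, 85.4 and 106 in exercise arrays, 128, 101 and 93.7 in GW arrays, and 102, 105 and 65.0 in vehicle arrays, and all groups overlapped.

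Pecam1 (Entrez gene 18613), a junction protein used to stain capillaries, had 102, 159 and 156 in combination arrays, 125, 138 and 132 in exercise arrays, 149, 105 and 132 in GW arrays, and 108, 91.7 and 105 in vehicle arrays. The exercise arrays lay above all vehicle arrays, at a fold of 1.30 (interval 0.97 to 1.75, adjusted p = 0.525). Combination arrays 2 and 3, those with the high fat cell marker sums of 1854 and 3117, were above all vehicle arrays, and combination array 1, with a sum of 471, was inside the vehicle range. The combination fold was 1.35 (interval 1.00 to 1.81, adjusted p = 0.497) and the GW fold 1.26 (0.93 to 1.69, 0.826).

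Cdh5 (Entrez gene 12562) had, in the probe set 1433956_at, signals of 112, 169 and 139 in combination arrays, 144, 147 and 178 in exercise arrays, 66.2, 97.0 and 116 in GW arrays, and 153, 161 and 144 in vehicle arrays. All GW arrays were below all vehicle arrays and all exercise arrays. GW against vehicle gave a fold of 0.59 (interval 0.43 to 0.82), whose p ranked 88 among 13575 (adjusted p = 0.49 by limma). In the probe set 1422047_at the signals were 85.9, 78.9 and 78.0 in combination arrays, 65.5, 52.8 and 111 in exercise arrays, 32.1, 33.8 and 47.1 in GW arrays, and 39.2, 33.0 and 67.1 in vehicle arrays. Here the combination arrays lay above all GW and all vehicle arrays.

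The training effect on Cdh5 under the drug, combination against GW, was a fold of 2.18 in 1422047_at (interval 1.33 to 3.58, adjusted p = 0.716) and 1.52 in 1433956_at (interval 1.11 to 2.09, adjusted p = 0.728). Averaged over drug and vehicle, training gave 1.89-fold in the first (interval 1.33 to 2.69, adjusted p = 0.288) and 0.32 on the log2 scale in the second (interval -0.01 to 0.64, adjusted p = 0.558). The estimates of the probe sets lay apart in sedentary mice, where GW against vehicle was 0.84-fold in 1422047_at (interval 0.51 to 1.38) and 0.59-fold in the other (0.43 to 0.82), and in combination against vehicle, at 1.83-fold (1.11 to 3.00) and 0.90-fold (0.66 to 1.24). In both comparisons the intervals overlapped, and the difference between the probe sets was not tested. Over the 12 arrays the Cdh5 probe sets had a Pearson r of 0.51 (permutation p = 0.0864, adjusted over 6 pairs 0.272) and a Spearman rho of 0.38 (permutation p = 0.229, adjusted 0.364). The r was 0.14 without the 2 arrays farthest from the median of 1422047_at.

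Eng (Entrez gene 13805) in 1417271_a_at had 229, 325 and 339 in combination arrays, 216, 303 and 279 in exercise arrays, 317, 246 and 303 in GW arrays, and 237, 256 and 242 in vehicle arrays. In each of the combination and exercise groups 2 arrays lay above and 1 below all vehicle arrays, and in combination the 2 higher ones were those with fat cell marker sums of 1854 and 3117, against 471 in the lower one. The combination fold was 1.20 (interval 0.93 to 1.54), the exercise fold 1.08 (0.83 to 1.39) and the GW fold 1.17 (0.91 to 1.51), with adjusted p of 0.65, 0.875 and 0.857. The other Eng probe set had group means of 70.3 ± 18.0 in combination, 66.3 ± 9.19 in exercise, 75.6 ± 26.6 in GW and 73.0 ± 9.36 in vehicle arrays (SD, n = 3 each), which overlapped throughout. Emcn (Entrez gene 59308) had 89.3, 97.6 and 91.7 in combination arrays, 78.3, 90.4 and 68.9 in exercise arrays, 120, 61.4 and 68.9 in GW arrays, and 93.4, 90.4 and 93.9 in vehicle arrays. GW array 1 was the highest of the 12 for Emcn and GW array 2 the lowest, and combination against vehicle was 0.00 on the log2 scale (interval -0.51 to 0.52).

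**Figure D3:**
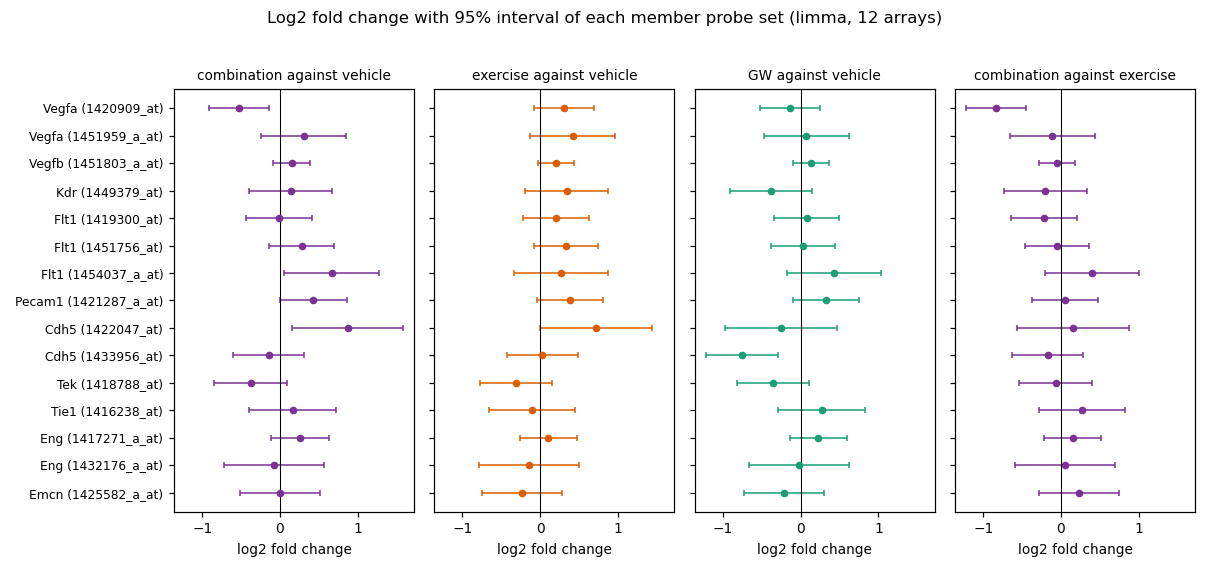
Log2 fold change (x axis) and its interval of 95% for each member probe set (rows) in 4 comparisons, from limma on 12 arrays; a value above 0 is higher in the group named first. Most intervals hold 0. The Vegfa probe set 1420909_at against exercise, at -0.84, and Cdh5 1433956_at in GW muscle, at -0.75, lie farthest to the left.

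Counts over the set are given beside those of all probe sets tested. For exercise against vehicle, 11 of 15 member probe sets were positive (median log2 0.20, against 0.01 over all probe sets, of which 51.2% were positive). None was past the adjusted threshold, as for 0.0147% of all probe sets, and 0 had an unadjusted p under 0.05, where 10.4% of all probe sets did. In 4 member probe sets the groups did not overlap (Vegfa 1420909_at, Vegfb and Pecam1 higher and Tek lower in exercise arrays), where 17.4% of all probe sets did not overlap.

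For combination against vehicle, 10 of 15 were positive (median log2 0.15, against -0.00 over all probe sets, of which 49.6% were positive). Of all probe sets 0.155% were past the adjusted threshold, and 9.98% had an unadjusted p under 0.05, as had 4 member probe sets. These were Cdh5 1422047_at, Flt1 1454037_a_at and Pecam1 on the higher side and Vegfa 1420909_at on the lower. The other probe sets of these genes had a log2 fold change of -0.15 (Cdh5), -0.01 and 0.28 (Flt1) and 0.30 (Vegfa). The groups did not overlap in 3 members, against 16.8% of all probe sets. The median was 0.04 without vehicle array 3, and the 4 members became 1 without vehicle array 1, vehicle array 2 or combination array 2. For GW against vehicle, 8 of 15 were positive, beside 49.8% of all probe sets (median log2 0.03, against -0.00). The member median had no stable sign, at -0.13 without GW array 1, -0.09 without vehicle array 1, -0.05 without vehicle array 2 and 0.16 without GW array 3. Here 0.0958% of all probe sets were past the adjusted threshold. Cdh5 1433956_at alone had an unadjusted p under 0.05, as had 6.42% of all probe sets. In 3 member probe sets the groups did not overlap, against 11% of all probe sets.

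For combination against exercise, the drug effect in trained muscle, 7 of 15 were positive, beside 48.7% of all probe sets (median log2 -0.05, against -0.01). Of all probe sets 0.162% were past the adjusted threshold. Vegfa 1420909_at alone had an unadjusted p under 0.05, where 9.18% of all probe sets did. It was also the one member without overlap, where 15.8% of all probe sets had none. The median was 0.11 without combination array 1. For combination against GW, the training effect under the drug, 10 were positive (median log2 0.10, against -0.00), and the 3 with an unadjusted p under 0.05 were 1 Vegfa probe set (lower) and both of Cdh5 (higher), where 5.75% of all probe sets had one. Groups did not overlap in 2 members, 1 probe set each of Flt1 and Cdh5, against 10.5% of all probe sets. The median lay between 0.05 (without GW array 2) and 0.21 (without combination array 1), and the count of 3 was 1 without combination array 2. For the interaction, 1 member probe set (Vegfa 1420909_at) had an unadjusted p under 0.05, as had 6.79% of all probe sets. For combination against GW and for the interaction no probe set of the table was past the adjusted threshold (0%). Averaged over the other factor, 2 member probe sets had an unadjusted p under 0.05 for training (Cdh5 1422047_at and Kdr, higher). For the drug 2 had one (Vegfa 1420909_at and Cdh5 1433956_at, lower). Of all probe sets 9.09% and 8.37% did, with 0.0147% and 0.317% past the adjusted threshold. The other Vegfa and Cdh5 probe sets had log2 drug averages of -0.02 (interval -0.40 to 0.37) and -0.05 (-0.56 to 0.46). With 6 arrays on either side, groups did not overlap in 0 members for training and 0 for the drug, against 0.376% and 0.611% of all probe sets. All comparisons with vehicle share the same 3 vehicle arrays.

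The precision was close to that of the whole table. The median standard error of a member's log2 fold change between 2 groups was 0.22, against 0.21 for all probe sets, and the members' intervals reached from a factor of 1.18 to a factor of 1.64 on either side of the estimate. The residual SD within groups had a median of 0.27 on the log2 scale for members and 0.25 for all probe sets.

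Over the arrays, members of different genes were weakly related as a set. Among 99 pairs of probe sets from different genes, 56 had a positive Pearson r over the 12 arrays, with a median of 0.10. The highest values were 0.82 for Vegfa (1451959_a_at) with Vegfb, 0.82 for the same Vegfa probe set with Flt1 (1451756_at), and 0.80 for Pecam1 with Eng (1417271_a_at). Spearman rho was 0.84, 0.77 and 0.79 in these pairs. The lowest was -0.73 for Vegfa (1451959_a_at) with the second Eng probe set. These pairs were picked for their values out of all of them and share arrays, RNA pools and scaling, so they are given as a description.

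**Figure D4:**
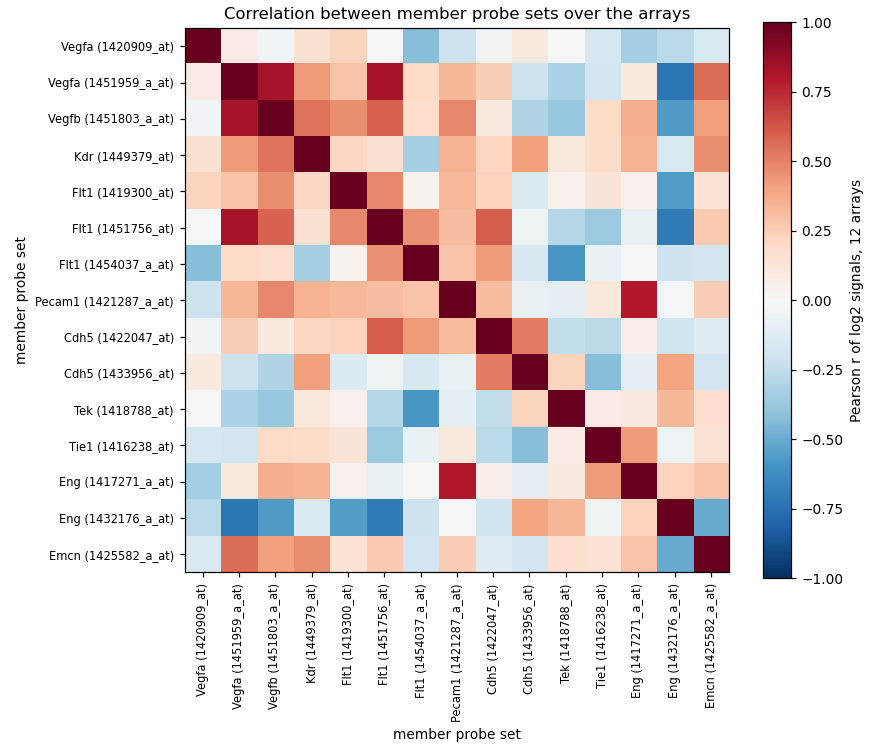
Pearson r of log2 signals over the 12 arrays between each pair of member probe sets (rows and columns), from blue at -1 to red at 1, with 1 on the diagonal. The 2 Vegfa rows differ from each other (r of 0.08 between them), and Pecam1 and Eng (1417271_a_at) share a dark red field (0.80).

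To find genes with a like pattern, the 8 receptor and marker genes (without the ligands) were each standardised over the arrays and averaged. This vessel profile ran from -0.42 to 0.78 in combination arrays, from -0.36 to 0.43 in exercise arrays, from -0.79 to 0.44 in GW arrays and from -0.19 to -0.04 in vehicle arrays, so the spread within each group other than vehicle was wider than the spacing of the groups. The averaged genes followed it unequally, and each is part of the profile, which raises its own r by construction. Pearson r with the profile was 0.78 for Kdr, 0.71 for Eng, 0.68 for Pecam1 and 0.61 for Emcn. It was only 0.34 for Tek, 0.30 for Tie1, 0.25 for Flt1 and 0.21 for Cdh5. Over the 12 arrays, the probe sets outside the set with the highest Pearson r were those of Nrp1 (0.87), Adipor2 (0.87), Axl (0.85), Tagln (0.85), Adck1 (0.85), Lpl (0.85), Pnp (0.84) and Plvap (0.84), with Spearman rho from 0.78 to 0.86. Nrp1 encodes a VEGF co-receptor, Plvap a protein of endothelial diaphragms, Tagln a protein of smooth muscle and Lpl the lipase that works at the capillary wall. Adipor2, Axl, Adck1 and Pnp were in none of the gene lists used here. The 2 other Nrp1 probe sets had an r of 0.62 and 0.12, and the other Lpl probe set 0.69. The genes outside the set were picked for their r out of all tested probe sets with 1 symbol. They share arrays, RNA pools and scaling with the profile, and their r was not tested against chance. They are given as a description and do not show a shared control.

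The wider vessel gene lists gave few calls. They include the members: Vegfa, Vegfb, Kdr and Flt1 are among the VEGF genes, and Tek and Tie1 among the angiopoietin and Tie genes. Pecam1, Cdh5, Eng and Emcn are among the endothelial markers. Counts and medians of these lists are therefore not separate from those of the members. Among 8 VEGF ligands and receptors tested (16 probe sets), 4 angiopoietin and Tie genes, 15 endothelial markers (21 probe sets), 8 Notch genes, 10 BMP and TGF-β genes, 8 angiogenesis inhibitors, 10 mural cell markers, 3 lymphatic markers and 5 genes of endothelial lipid handling, 0 probe sets were past the adjusted threshold in any of the 8 comparisons by limma. At an unadjusted p under 0.05 the endothelial list had 3 of 21 for combination, 7 of 21 for exercise and 1 of 21 for GW against vehicle, where 9.98%, 10.4% and 6.42% of all probe sets did. Its median log2 fold change was 0.08, 0.12 and 0.02 in the same order. In exercise against vehicle the muscle fibre markers had a median log2 of 0.56, with 7 of 8 probe sets at an unadjusted p under 0.05 and 0 past the adjusted threshold, and their part in the vessel lists was not tested.

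Within the endothelial list 15 of 21 probe sets were positive and 6 negative for exercise, beside 51.2% positive of all probe sets. Among the negative ones was that of Vwf, with 111, 133 and 96.5 in exercise and 130, 170 and 161 in vehicle arrays. The smallest p-values for exercise fell on Cldn5 and Egfl7, and Egfl7 held 4 of the 21 probe sets. Cldn5, a claudin of endothelial tight junctions, had signals of 92.6, 147 and 142 in combination arrays, 129, 177 and 153 in exercise arrays, 84.3, 72.7 and 89.5 in GW arrays, and 97.0, 81.1 and 69.0 in vehicle arrays. All exercise arrays were above all GW and vehicle arrays (log2 0.90 ± 0.22 against vehicle, adjusted p = 0.225), and combination arrays 2 and 3 were as well. Egfl7, a factor secreted by endothelium, was positive for exercise in all 4 of its probe sets (log2 0.32 to 0.68), with an adjusted p of 0.279 at the smallest. For combination against exercise its probe sets had -0.35 to -0.49 (adjusted p of 0.359 at the smallest).

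Among the other angiogenic factors, 1 of 25 probe sets passed. Angptl4, a secreted inhibitor of lipoprotein lipase and a PPAR target that also acts on vessels, had 156, 342 and 328 in combination arrays, 80.7, 42.5 and 9.01 in exercise arrays, 304, 145 and 177 in GW arrays, and 92.2, 37.9 and 20.1 in vehicle arrays. All 6 arrays with the drug were above all 6 without it, and averaged over trained and sedentary mice it rose with the drug (log2 2.66 ± 0.47, adjusted p = 0.0227 by limma). Exercise array 3 and vehicle array 3 lay below the 95th percentile of bacterial controls on the same array (25.6 and 24.2), so this fold rests in part on values not above background and its size is uncertain. The call was lost without combination array 2 (adjusted p = 0.0929), combination array 3 (0.0766), GW array 1 (0.0554), GW array 3 (0.0658) or vehicle array 2 (0.0715). Epas1, a hypoxia-inducible factor subunit abundant in endothelium, had signals of 151 ± 6.04 in combination and 146 ± 12.9 in GW against 97.5 ± 18.2 in vehicle arrays (SD, n = 3 each), and adjusted p of 0.223 and 0.562. Its exercise arrays, at 120, 105 and 149, overlapped with both the vehicle and the GW arrays. Of the Notch genes, the tip cell ligand gene Dll4 had 49.7, 55.3 and 58.2 in combination arrays and 13.7, 28.1 and 29.9 in vehicle arrays in 1421826_at (adjusted p = 0.287), of which the vehicle value of 13.7 was below the 95th percentile of bacterial controls on its array (16.7). Exercise arrays, at 32.4, 38.6 and 44.5, were also above all vehicle arrays in 1421826_at, and GW arrays had 41.8, 32.3 and 25.2. In the other Dll4 probe set, 1421827_at, signals were 30.9, 74.0 and 74.1 in combination arrays and 48.7, 42.4 and 33.8 in vehicle arrays, which overlapped (adjusted p = 0.747). The Notch list's median log2 was 0.58 for exercise, with 4 of 13 probe sets at an unadjusted p under 0.05 (Nrarp at 0.58, adjusted p = 0.378), beside 10.4% of all probe sets and a median of 0.56 for the muscle fibre markers. Tgfbr2 had 1.58 for exercise in 1 probe set (adjusted p = 0.21) and 0.11 in the other.

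All 11 probe sets of the 5 genes listed for endothelial lipid handling were positive for combination against vehicle (median log2 0.59, 7 at an unadjusted p under 0.05, 0 past the adjusted threshold), where 49.6% of all probe sets were positive and 9.98% had an unadjusted p under 0.05. Whole muscle was measured, so these signals are not those of endothelium alone. Fabp4, expressed by capillary endothelium and by fat cells, had 1248, 2737 and 3946 in combination arrays in its brightest probe set, in the same order as the fat cell marker sums of 471, 1854 and 3117, against 1830, 1404 and 1359 in vehicle arrays. Lpl, in its brightest probe set, had 2407, 3579 and 4004 in combination arrays and 2656, 2303 and 2224 in vehicle arrays. In these probe sets combination array 1 was below vehicle array 1, while in another of each gene it was above it (Fabp4 at 137 against 81.6 in 1424155_at, Lpl at 609 against 539 in 1431056_a_at), and the part of fat cells or muscle fibres in these values was not tested.

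**Figure D5:**
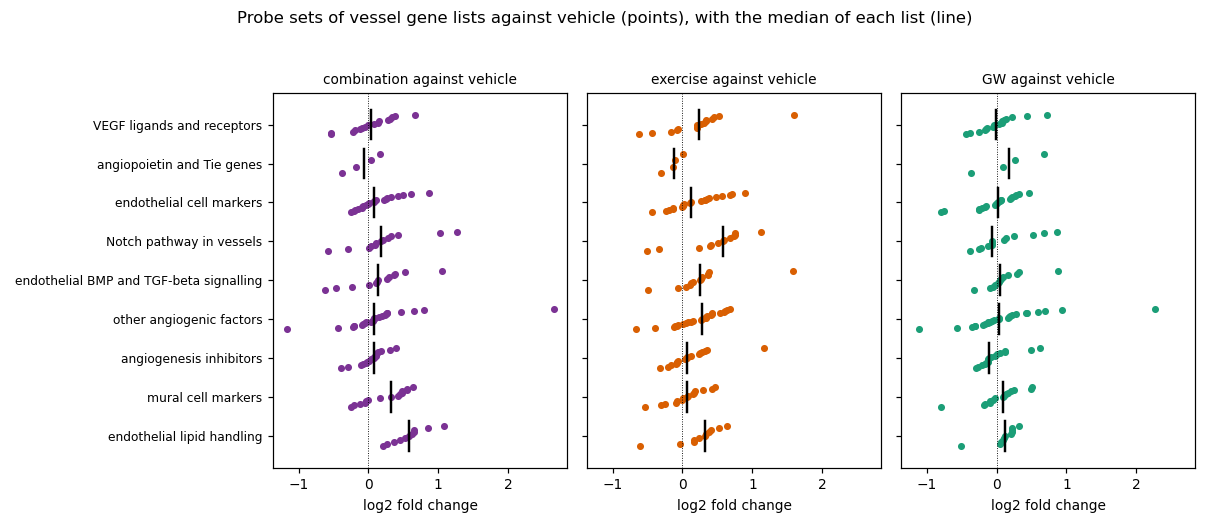
Log2 fold change against vehicle (x axis) of each tested probe set (points) in 9 vessel gene lists (rows), for combination, exercise and GW, with the list's median as a vertical line. Medians lay between -0.12 and 0.59, and the point at 2.65 in combination and at 2.26 in GW is Angptl4.

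Markers of the cells around the endothelium did not pass either. Mural cell markers of pericytes and smooth muscle summed to 3644 to 3972 in combination, 3615 to 3715 in exercise, 3499 to 3796 in GW and 3533 to 3849 in vehicle arrays, which overlapped. Macrophage markers summed to 545 to 1070, 911 to 1446, 774 to 1094 and 670 to 1181 in the same order. Fibroblast markers summed to 4755 to 6955, 5639 to 5948, 5202 to 6192 and 4942 to 5989. The 15 endothelial markers summed to 1904 to 2648 in combination, 2259 to 2528 in exercise, 2037 to 2357 in GW and 2160 to 2244 in vehicle arrays. All 3 exercise arrays were above all 3 vehicle arrays in the endothelial sum, and the muscle fibre sum also had exercise arrays (77546 to 82550) above vehicle arrays (61817 to 63622).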

How the data were processed

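The authors deposited signal intensities on a linear scale, made with MAS5 (no version given) per the submitters' processing notes. No deposited value was at or below 0, and detection calls were not used here. Values were log2-transformed without pseudocount or further scaling. After 64 control probe sets were left out, the upper 60% of 22626 by mean log2 signal (13575, mean signal above 28.4) were tested. Symbols came from the array annotation, which gave 1 symbol to 20393 probe sets, and all 15 member probe sets matched a RefSeq gene identifier. In R 4.3.3, limma 3.58.1 fitted the 4 group means over the 12 arrays, which left 8 residual degrees of freedom, and moderated the variance with an intensity trend, tests were two-sided, and p-values were adjusted by Benjamini-Hochberg over all probe sets tested. The number of arrays limits the precision. Fold changes put the group named first over the other, intervals are at 95%, and sums of markers take the brightest tested probe set of each gene.

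The members and gene lists were chosen with earlier results of these data known. All member probe sets are named. Of other lists the rule took any gene past the threshold and, for each comparison with vehicle, the 2 with the smallest p, of which those described are a part; genes of a like pattern were the 8 with the highest r. Fabp4, Lpl and Vwf in single arrays and the other probe sets of named genes were added after their values were seen. Promoters came from the RefSeq table of build GRCm38.p6, and motifs were counted on both strands. Correlations between probe sets of 1 gene were tested by 100000 permutations. The fit was tested on simulated data. The alternatives changed the normalization (quantile, cyclic loess), the pseudocount (10.5), the filter (none, or the upper 40%), the variance model (no trend, robust prior, array weights) or the samples (only the groups compared, each of the 12 arrays left out in turn), or took the array number as a block; for Angptl4 and Egr1 they were added after the data were seen. Whether equal array numbers mark pairs was not settled. Of 18 correlations between the deviations of same-numbered arrays from their group means, 1 was above 0.1 (range -0.05 to 0.10). These were weak, yet 8 of the 12 arrays had their highest correlation with an array of their own number, among arrays of other groups.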

Additional observations from a re-analysis of the deposited data

How the results depend on the processing

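The count of member probe sets past the adjusted threshold stayed at 0 in 7 of the 8 comparisons under every alternative run (22 for the pairwise comparisons, 21 for the interaction and both averages). For combination against exercise it was between 0 and 1 when arrays were left out in turn: without combination array 1 the Vegfa probe set 1420909_at passed (adjusted p = 0.0199), and over all alternatives its log2 fold change lay between -1.01 and -0.69 and its adjusted p between 0.0199 and 0.413. With the array number as a replicate block its adjusted p was 0.0664, and the block gave 0 members past the threshold in each of the 8 comparisons. Of 120 member values (15 probe sets in 8 comparisons), 21 were given with a direction in the text, by an unadjusted p under 0.05 or groups without overlap, and 0 of these changed sign. This 0 was largely fixed by the choice of values: groups without overlap keep their sign when any array is left out, and the others were picked by p. Of all 120, 44 changed sign in at least 1 alternative, each smaller than 0.76 of its standard error. The filter at the upper 40% left 11 of the 15 member probe sets. Of the listed genes that passed, Angptl4 for the drug average passed in 14 of 21 alternatives (log2 2.21 to 3.00, adjusted p 0.0079 to 0.227) and Egr1 for exercise against vehicle in 10 of 22 (log2 3.39 to 3.70, adjusted p 2.84e-06 to 0.269), with no change of sign in either; these were chosen after seeing the data. Counts over all probe sets depended more on the processing. For combination against exercise 22 were called, with a range from 4 without an intensity trend to 83 without combination array 1. For combination against vehicle 21 were called (7 to 94), for GW against vehicle 13 (7 to 20), for exercise against vehicle 2 (0 to 33), for the training average 2 (0 to 23) and for the drug average 43 (9 to 76). For combination against GW the range was 0 to 35 and for the interaction 0 to 9. Intervals up to a factor of 1.64 on either side between 2 groups, and 2.02 for the interaction, leave moderate changes of single members undetectable with 3 pools a group.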
